A study of Rattus norvegicus with 10 samples.

Results

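The alpha-arrestins ARRDC2, ARRDC3 and TXNIP were followed through a calorie restriction (CR) series of rat gastrocnemius muscle. The members were the probe sets that the platform annotation pairs with Arrdc2, Arrdc3 or Txnip and with no other gene. This gave 4 of 31099 probe sets on the array, 2 of them for Arrdc3 and 1 each for Arrdc2 and Txnip. They were chosen by their measured signals, for the graded rise of Arrdc3 with the level of CR and for the higher Arrdc2 after 1 month. Their signals, ratios to control, slopes and differences between durations are therefore given as a description, with standard errors (SE) but no test.

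Male Wistar rats were bought at the age of 5 weeks and are listed as 6 weeks old at the start. All were given the AIN-93G powdered diet and fasted for 16 h before dissection. They received 95%, 90%, 80% or 70% of the recorded intake (5%, 10%, 20% and 30% CR) or all of it (control). Each regime lasted 1 month or 1 week. RNA of the 5 rats of each group was pooled and hybridised to 1 Affymetrix Rat Genome 230 2.0 array, which made 10 arrays. No group had a replicate, so the spread in every fit below came from the deviations of the arrays around a line or a group mean, and the variation between rats was not measured. Rats on the longer regime were also older at dissection, and the effects of age and of duration cannot be told apart. For 2 arrays of the 1-week series, control and 5% CR, the feeding named in the free-text description is the reverse of that in the title. The titles were followed, and the values with these 2 arrays exchanged are given where they matter.

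The arrays held the transcripts of skeletal muscle. Ckm, the muscle creatine kinase, had signals of 6703.6 to 11659.7 and Acta1, the skeletal actin, 7237.3 to 12425.2, whereas the liver transcripts Alb and Apoa1 stayed at or below 10.0 and 7.7. The 10 slow fibre markers averaged 8.27 on the log2 scale on the 1-week control array and 8.98 to 10.12 on the other 9 arrays. The 6 adipocyte markers summed to 677.1 to 887.0 on the 1-month arrays and 800.4 to 1159.4 on the 1-week arrays. Their mean log2 signal was highest at 30% CR, with 4.65 at 1 month and 5.23 at 1 week, against 3.72 to 4.28 on the other 8 arrays. Of these markers Lep was between 0.5 and 3.1, Plin1 between 1.9 and 13.4, Cidec between 1.4 and 14.0, Adipoq between 11.9 and 39.3, Cfd between 51.4 and 156.6 and Fabp4 between 601.0 and 1037.3. The part of fibre type or of adipocytes in the results below was not tested beyond the fit with the slow fibre markers as a covariate. In bulk muscle, fewer cells of a type and less RNA per cell cannot be told apart. Affymetrix scaling set the trimmed mean signal to 86.39 on each 1-month array and to 99.58 on each 1-week array, and the median tested probe set was 0.21 lower on the log2 scale at 1 month.

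Alpha-arrestins are cytosolic adaptor proteins with the same arrestin fold as the beta-arrestins that shut off G protein-coupled receptors. Most of them carry short proline and tyrosine motifs that recruit ubiquitin ligases of the NEDD4 family, and so they direct membrane proteins to endocytosis and lysosomes. ARRDC3 is known for its action on beta-adrenergic receptors and, in mice, on body fat and energy expenditure. TXNIP binds and inhibits thioredoxin and promotes the endocytosis of the glucose transporters GLUT1 and GLUT4. Txnip and Arrdc4 are classical targets of the glucose-sensing factors MondoA and ChREBP. ARRDC2 is the least studied of the 3.

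The promoter windows of Arrdc2 and Arrdc3 are shown, and that of Arrdc4 as the relative known to share its glucose-sensing factors with Txnip. No window was available for Txnip, so its promoter was not searched. Sequences are from RefSeq on GRCr8 and run from 250 bases before to 50 bases after the annotated start, 5′ to 3′ along the gene. Capitals mark CCAAT boxes, written ATTGG where they lie on the opposite strand, and the E-box CACGTG.
Arrdc2 (chr16:18635633-18635932, + strand): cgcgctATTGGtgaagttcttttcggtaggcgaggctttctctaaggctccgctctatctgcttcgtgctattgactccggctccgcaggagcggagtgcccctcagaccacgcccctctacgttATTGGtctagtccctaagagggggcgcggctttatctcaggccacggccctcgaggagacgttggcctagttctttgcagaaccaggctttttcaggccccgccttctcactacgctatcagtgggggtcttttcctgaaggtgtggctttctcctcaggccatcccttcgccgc
Arrdc3 (chr2:12872952-12873251, + strand): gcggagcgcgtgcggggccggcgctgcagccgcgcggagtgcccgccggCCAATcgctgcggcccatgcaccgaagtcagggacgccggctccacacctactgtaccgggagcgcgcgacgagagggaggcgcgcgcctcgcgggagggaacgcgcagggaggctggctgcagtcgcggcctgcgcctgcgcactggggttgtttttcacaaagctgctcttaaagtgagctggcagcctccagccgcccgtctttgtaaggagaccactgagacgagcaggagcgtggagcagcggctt
Arrdc4 (chr1:131793376-131793675, − strand): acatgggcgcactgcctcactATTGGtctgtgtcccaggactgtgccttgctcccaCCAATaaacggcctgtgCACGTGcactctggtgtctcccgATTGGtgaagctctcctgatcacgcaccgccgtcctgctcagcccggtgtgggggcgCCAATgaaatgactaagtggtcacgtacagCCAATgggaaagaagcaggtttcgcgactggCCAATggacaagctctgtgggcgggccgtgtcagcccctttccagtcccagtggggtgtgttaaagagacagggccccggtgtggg

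The windows had a GC content of 58.3% in Arrdc2, 70% in Arrdc3 and 60.0% in Arrdc4. With the start counted as 0, Arrdc2 held 2 CCAAT boxes, at −244 and −125, and Arrdc3 held 1, at −201. Arrdc4 held 6 CCAAT boxes and 1 E-box at −177. CCAAT was found on either strand in 37.5% of the 33469 RefSeq windows of this length and CACGTG in 6.42%. None of these 3 windows contained the cyclic AMP element TGACGTCA (1.83% of windows), the FOXO site TGTTTAC (3.78%), the D-box TTATGNAA (3.66%), a glucocorticoid site of GNACA and TGTNC 3 bases apart (0.439%) or a pair of CACGNG sites 5 bases apart (0.0359%), the spacing of a carbohydrate response element. The last motif contains the E-box where N is T. Only pairs with both sites in the same direction were searched, so other forms of the element could be missed. Such matches describe letters in a window and say nothing of binding.

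Arrdc3 was highest at 30% CR and low at 5% and 10% CR. Its brighter probe set (1389230_at) had signals of 429.8, 372.3, 348.4, 478.3 and 906.0 in control, 5%, 10%, 20% and 30% CR at 1 month. At 1 week they were 356.8, 267.9, 271.1, 503.4 and 787.5 in the same order. Both mild levels lay below the control at both durations and both stronger levels above it. The array at 30% CR was 2.11-fold the control at 1 month and 2.21-fold at 1 week, while 5% CR was 0.866-fold and 0.751-fold. The steepest step differed between the durations, from 20% to 30% CR at 1 month (1.89-fold) and from 10% to 20% CR at 1 week (1.86-fold).

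The second, dimmer Arrdc3 probe set (1394948_at) was also highest at 30% CR at both durations. It had signals of 154.4, 175.6, 155.4, 194.7 and 393.8 from control to 30% CR at 1 month, and 155.3, 88.2, 110.4, 238.7 and 377.4 at 1 week. The mild levels lay below the control at 1 week and at or just above it at 1 month. At 30% CR this probe set was 2.55-fold the control at 1 month and 2.43-fold at 1 week. The 2 probe sets of Arrdc3 therefore had the same sign against control in 6 of the 8 comparisons, the exceptions being 5% and 10% CR at 1 month.

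**Figure D1:**
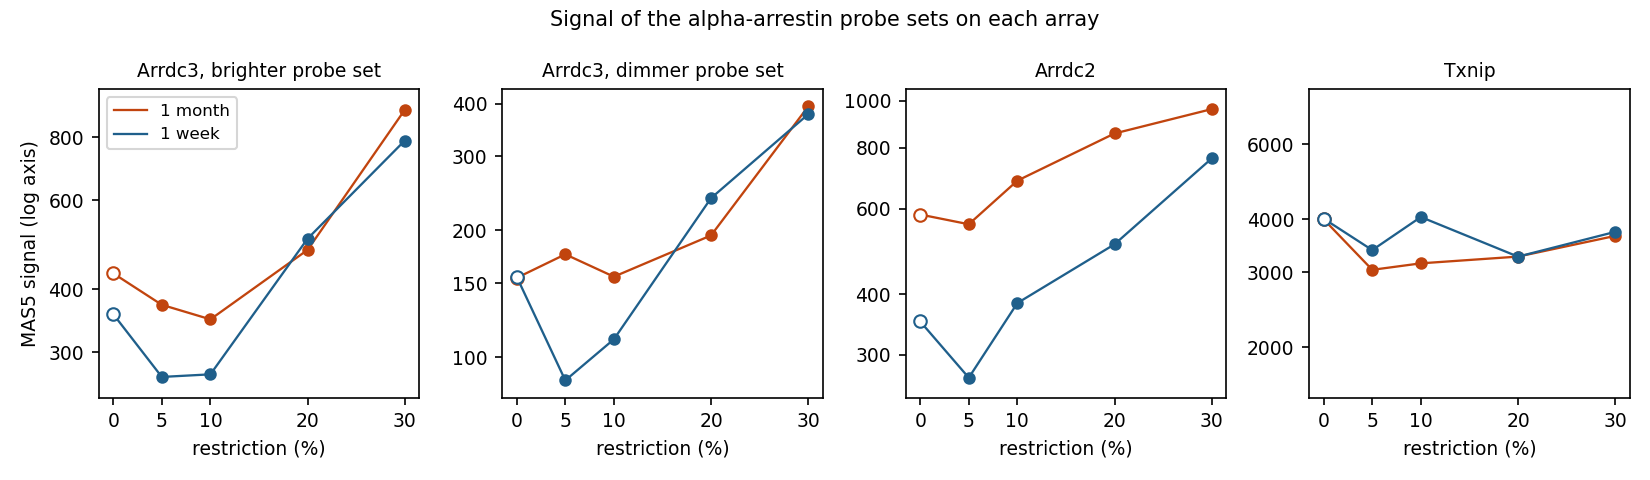
MAS5 signal (logarithmic axis) of the 4 probe sets on each of the 10 arrays against the level of restriction in percent, 1 month in red and 1 week in blue, with open circles for the controls and 1 array per point. Arrdc3 is highest at 30% CR at both durations, Arrdc2 lies higher at 1 month at every level, and Txnip stays between 3038.0 and 4043.9.

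Arrdc2 was graded over the restricted arrays and higher at 1 month than at 1 week at every level. Its probe set (1383608_at) had signals of 583.5, 557.2, 685.1, 856.8 and 961.7 in control, 5%, 10%, 20% and 30% CR at 1 month. At 1 week they were 351.5, 269.2, 383.5, 506.7 and 761.2. Each step from 5% CR upwards was a step up at both durations, and 5% CR was the only level below control. The array at 30% CR was 1.65-fold the control at 1 month and 2.17-fold at 1 week, and 1.73-fold and 2.83-fold the 5% CR array.

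Txnip gave a bright signal that moved little. Its probe set (1371131_a_at) had signals of 3993.7, 3038.0, 3146.6, 3263.7 and 3650.6 in control, 5%, 10%, 20% and 30% CR at 1 month, and 4007.8, 3380.6, 4043.9, 3262.8 and 3731.4 at 1 week. It was below its control in 7 of 8 comparisons, the exception being 10% CR at 1 week with a log2 ratio of 0.01, and with the 2 doubtful arrays exchanged it was above control in 3 of 8. Its log2 ratios ran as labelled from −0.40 at 5% CR after 1 month to 0.01, and its folds of control from 0.761 to 1.01. At 1 month the control was the highest array and 5% CR the lowest, with the signal higher at each further level. At 1 week no such order was seen.

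**Figure D2:**
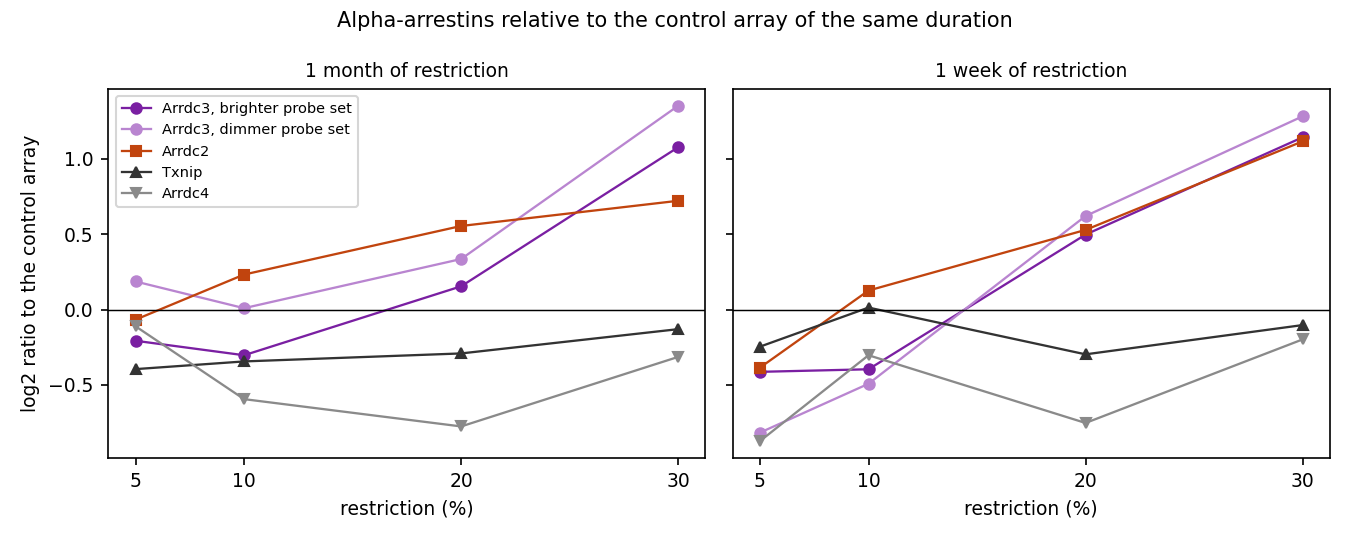
Log2 ratio to the control array (vertical axis) against the level of restriction in percent, 1 month on the left and 1 week on the right, for Arrdc3 (both probe sets), Arrdc2, Txnip and Arrdc4. Arrdc3 and Arrdc2 climb to between 0.72 and 1.35 at 30% CR, whereas Txnip and Arrdc4 lie at or below 0.01. The 4 points of a line share 1 control array.

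The 4 ratios of a duration share 1 control array, so their common sign carries the error of that array. A signal that climbed from 10% through 20% to 30% CR at both durations was seen in both Arrdc3 probe sets and in Arrdc2, and in 3.37% of the 15521 probe sets bright enough to be tested. The 30% CR array was the highest of its duration at both durations in these 3 probe sets and in 5.13% of all tested, and both stronger levels exceeded the other 3 groups at both durations in these 3 and in 2.18%. A log2 ratio of at least 1 at 30% CR at both durations was reached by both Arrdc3 probe sets and by 0.367% of all tested. Arrdc2 reached it at 1 week (1.12) but not at 1 month (0.72). No member had a log2 ratio of at least 0.25 with 1 sign in all 8 comparisons, the mark of a response already present at 5% CR, which 2.54% of probe sets reached and 1.40% reached upward. In the 1-week 5% CR array, log2 ratios of −0.25 or less were seen in Arrdc2 (−0.39) and Arrdc3 (−0.41 and −0.82), and in 16.4% of all tested. At 10% CR after 1 week Arrdc3 had −0.40 and −0.49, and 17.6% of all tested had −0.25 or less. With the 1-week control and 5% CR arrays exchanged these signs turn at 5% CR and for Arrdc3 also at 10% CR (0.02 and 0.32), so that the dip at the mild levels after 1 week is lost and Arrdc3 lies above control in 6 and 8 of 8 comparisons. In that case the log2 ratios at 30% CR after 1 week are 1.5 for Arrdc2 and 1.56 and 2.10 for Arrdc3.

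The slope over the 8 restricted arrays, fitted with duration as a factor and without the controls, was 0.60 ± 0.06 log2 units per 10 percentage points of CR (estimate ± SE) for the brighter Arrdc3 probe set and 0.68 ± 0.09 for the dimmer. These are rises of 1.52-fold and 1.60-fold per 10 points. Arrdc2 had 0.44 ± 0.05 and Txnip 0.05 ± 0.04. Of all tested probe sets, 5 had a larger slope than the brighter Arrdc3 probe set, 1 a larger slope than the dimmer and 19 a larger slope than Arrdc2. In this fit 0.129% of probe sets passed as higher and 0.116% as lower at an adjusted p of 0.05, which is given for scale only because the members were chosen on this slope. With the controls included, the trend over all 10 arrays was 0.43 ± 0.08 and 0.50 ± 0.09 for Arrdc3, 0.36 ± 0.05 for Arrdc2 and −0.02 ± 0.04 for Txnip.

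In the mean of the 8 restricted arrays against that of the 2 controls, the log2 difference was 0.19 ± 0.36 for the brighter Arrdc3 probe set, 0.31 ± 0.42 for the dimmer and 0.35 ± 0.27 for Arrdc2. Without the 1-week 30% CR array these were 0.04, 0.13 and 0.23, and their highest values were 0.29 and 0.47 without the 1-week 5% CR array (brighter Arrdc3 and Arrdc2) and 0.47 without the 1-week control array (dimmer Arrdc3). Txnip had −0.22 ± 0.09, a fold of 0.856. With the slow fibre markers as a covariate the brighter Arrdc3 probe set turned to −0.18. With the 2 doubtful arrays exchanged the dimmer moved to 0.82 and Txnip to −0.07.

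The 1-month array was brighter than the 1-week array of the same level in all 5 pairs for Arrdc2, by 1.66-fold in control, 2.07-fold at 5%, 1.79-fold at 10%, 1.69-fold at 20% and 1.26-fold at 30% CR. The Arrdc2 difference was thus also present in the pair of control arrays. The same order in all 5 pairs was found in 1.61% of tested probe sets as deposited. That share carries the lower scaling of the 1-month arrays, where the median difference between durations was −0.24 to −0.19 log2 units over the 5 levels. It was not computed after rescaling. The brighter Arrdc3 probe set was higher at 1 month in 4 of 5 pairs, by 1.20-fold in control, 1.39-fold at 5%, 1.28-fold at 10% and 1.15-fold at 30% CR, and was 0.950-fold at 20% CR. The dimmer was higher in 3 of 5 pairs, by 1.99-fold at 5%, 1.41-fold at 10% and 1.04-fold at 30% CR, and was 0.994-fold in control and 0.816-fold at 20% CR. Txnip was 0.996-fold in control and between 0.778-fold and 1.00-fold at the restricted levels.

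Fitted over all 10 arrays with the level as a covariate, 1 month minus 1 week was 0.74 ± 0.10 log2 units for Arrdc2, a fold of 1.67. It was 0.25 ± 0.16 and 0.25 ± 0.19 for the 2 Arrdc3 probe sets and −0.11 ± 0.08 for Txnip. Leaving out 1 array gave 0.12 (without the 1-month control) to 0.37 (without the 1-week control) for the brighter Arrdc3 probe set, and 0.11 (without 5% CR at 1 week) to 0.41 (without the 1-week control) for the dimmer. Txnip lay between −0.18 without the 1-month control and −0.06 without 5% CR at 1 month. Relative to the median of all tested probe sets these differences were 0.95, 0.46, 0.46 and 0.10. For Arrdc2, 16 of the tested probe sets had a larger difference, and for the brighter Arrdc3 probe set 382. As deposited, 175 probe sets (1.13%) passed as higher at 1 month and 5088 (32.8%) as lower, 33.9% in all. This split was 723 against 852 after quantile normalization and 937 against 428 after median centring. Under these scalings Arrdc2 stayed higher at 1 month (0.94 and 1.04), as did Arrdc3 (0.44 and 0.54), whereas Txnip changed sign (0.13 and 0.18).

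**Figure D3:**
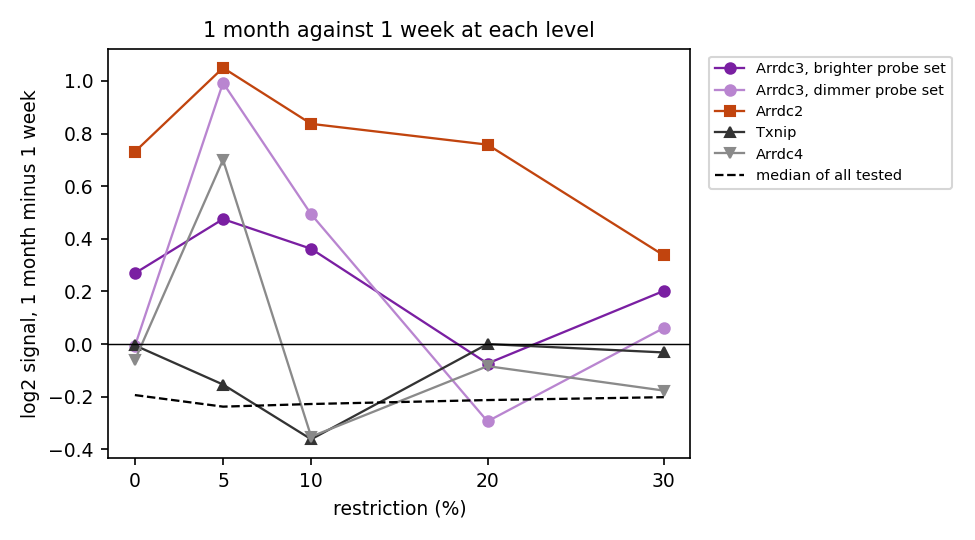
Log2 signal at 1 month minus that at 1 week for the pair of arrays at each level of restriction in percent, for Arrdc3 (both probe sets), Arrdc2, Txnip and Arrdc4, with the median of all tested probe sets as a dashed line. Arrdc2 lies between 0.34 and 1.05 and is positive at all 5 levels, while the dashed line runs between −0.24 and −0.19.

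The difference of the dose slopes between durations was not part of the rule that chose the genes, though it comes from the same signals. It was tested for all 4 probe sets. The slope at 1 month minus that at 1 week was −0.16 ± 0.09 log2 units per 10 points for Arrdc2 (limma, adjusted p = 0.835), with a slope of 0.28 at 1 month and 0.44 at 1 week. It was −0.09 ± 0.15 (adjusted p = 0.958) and −0.18 ± 0.18 (adjusted p = 0.915) for Arrdc3 and 0.03 ± 0.08 (adjusted p = 0.976) for Txnip. None of the 15521 tested probe sets passed in this limma fit (0%), and 940 had an unadjusted p under 0.05. A flatter Arrdc2 response at 1 month was therefore not separable from the spread between arrays.

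Among the relatives, Arrdc4, Arrdc1 and Vps26c lay mostly below control, as Txnip did. Arrdc1 and Vps26c were each above control in 1 of 8 comparisons as labelled. Arrdc4, an adaptor that also acts on glucose transporters, had signals of 48.6, 45.0, 32.2, 28.4 and 39.1 from control to 30% CR at 1 month and 50.7, 27.7, 41.1, 30.1 and 44.2 at 1 week. It was below its control in 8 of 8 comparisons, with log2 ratios of −0.87 to −0.11. A control above all 4 restricted arrays at both durations was found in 8.36% of tested probe sets. The restricted minus control difference of −0.49 ± 0.22 did not pass (limma, adjusted p = 0.318), and with the 2 doubtful arrays exchanged Arrdc4 was lower in 4 of 8 comparisons. Both Arrdc4 and Txnip were lowest at 5% and 20% CR among the 1-week arrays.

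Arrdc1, which binds the ESCRT machinery at the plasma membrane, stayed between 26.3 and 34.7, with a dose trend of −0.06 ± 0.07 (adjusted p = 0.726). The beta-arrestin Arrb2 ranged without order from 12.7 to 45.7. The VPS26 family genes Vps26a, Vps26b and Vps26c, which share the arrestin fold, had dose trends of 0.08 ± 0.05, −0.06 ± 0.03 and −0.11 ± 0.04 (limma, adjusted p = 0.489, 0.374 and 0.236). In all, 0 of the 6 relatives tested passed in the dose trend, where 0.941% of probe sets passed as higher and 1.06% as lower in limma. Of the 6, 1 (Vps26c) had an unadjusted p under 0.05, as did 2222 of the 15521 tested probe sets. No relative passed in the slope over restricted arrays or in restricted against control either. There 0 and 2 of the 6 had an unadjusted p under 0.05, against 1616 and 2209 of the 15521 tested probe sets. Vps26a had signals of 356.0 to 381.3 in the restricted groups and 230.3 in control at 1 month, and of 345.8 to 412.8 in the restricted groups and 404.8 in control at 1 week. Its restricted minus control difference of 0.30 ± 0.12 (adjusted p = 0.276) was 0.67 without the 1-week control array (adjusted p = 0.0415) and in the 1-month arrays alone (0.0174), and −0.07 without the 1-month control array. Arrb1 was too dim to be tested and Arrdc5 is not analysed here.

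Few of the listed partners of the alpha-arrestins passed in the dose trend, which with 1 array per group does not show that the others were unchanged. None of the 11 tested NEDD4-family ligases and adaptors passed. The smallest p was that of Hgs, an endosomal sorting subunit, with 0.12 ± 0.04 (limma, adjusted p = 0.187). None of 8 genes of the thioredoxin system, the target of TXNIP, passed either, with Txn2 at 0.06 ± 0.03 (adjusted p = 0.328). Each of these lists had 1 gene with an unadjusted p under 0.05, the gene named, against 2222 of the 15521 tested probe sets. Of 9 genes of the glucose-sensing factors and of glucose uptake, 1 rose, Slc2a4, which encodes the transporter GLUT4. Slc2a4 had signals of 1453.5, 1485.6, 1515.6, 1583.1 and 1782.5 from control to 30% CR at 1 month and 1047.7, 1182.7, 1341.3, 1494.3 and 1606.5 at 1 week, each step being upward. Its dose trend was 0.15 ± 0.03 (limma, adjusted p = 0.0137), and the call was lost without the 1-week control array (adjusted p = 0.0625) or the 1-week 30% CR array (0.101), with the slow fibre covariate (0.14), without the empirical Bayes trend (0.101) and in the 1-month arrays alone (0.504).

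None of 7 genes of beta-adrenergic signalling passed in the dose trend, and 1 had an unadjusted p under 0.05, against 2222 of the 15521 tested probe sets. In restricted against control, where 1.13% of probe sets passed as higher and 0.876% as lower, Pde4b, a phosphodiesterase that degrades cyclic AMP, fell by 1.11 log2 units (SE 0.16, limma adjusted p = 0.00246). Pde4b had signals of 82.7 to 100.9 in the restricted groups and 271.3 in control at 1 month, and of 123.8 to 150.1 in the restricted groups and 211.5 in control at 1 week. The control array was the highest at both durations. The call was lost with the 2 doubtful arrays exchanged (adjusted p = 0.44) and without the 1-month control array (0.0859).

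Glucocorticoids rise in fasting and are known to induce a set of genes in muscle. The list used here also includes the receptor gene Nr3c1. Like the other lists, it was chosen with earlier results of these data known, so its counts are a description. In the dose trend 5 of its 11 tested genes rose and none fell, against 0.941% of all tested probe sets higher and 1.06% lower. The list median was 0.19 against 0.00 for all 9170 genes. Fkbp5, a co-chaperone of the glucocorticoid receptor, had 0.36 ± 0.04 (limma, adjusted p = 0.00131) and Glul, glutamine synthetase, 0.27 ± 0.04 (adjusted p = 0.00348). Klf15, Klf9 and Sgk1, named after their values were seen, were the other 3, with 0.26, 0.19 and 0.18. Without the 1-week control array 3 of 11 passed, and likewise 3 with the probe sets of each gene averaged. Over the restricted arrays alone 3 of 11 rose, against 0.129% of all tested probe sets, with a list median of 0.21 against 0.00. Ddit4, an inhibitor of mTORC1, had signals of 268.9, 226.0, 296.8, 447.3 and 529.0 from control to 30% CR at 1 month and 275.3, 89.6, 145.4, 187.5 and 474.6 at 1 week. Like Arrdc2 and Arrdc3, it was lowest at 5% CR at 1 week. Its slope was 0.69 ± 0.08 (adjusted p = 0.00478), that of Errfi1, a feedback inhibitor of the EGF receptor, 0.35 ± 0.06 (adjusted p = 0.0448). Fkbp5 was the third, named after its value was seen, with 0.29 (adjusted p = 0.018). The calls of Ddit4 and Errfi1 were lost with the 2 doubtful arrays exchanged (adjusted p = 0.164 and 0.311) and without the empirical Bayes trend (0.136 and 0.278), and that of Errfi1 on leaving out any of the arrays but 10% CR at 1 month (0.055 to 0.318).

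The FOXO list gave 2 of 12 genes that rose in the dose trend, against 0.941% of all tested probe sets, with a median of 0.10. Foxo3, a transcription factor of the atrophy programme, had 0.19 ± 0.04 (limma, adjusted p = 0.0119) and Gabarapl1, an autophagy gene, 0.19 ± 0.04 (adjusted p = 0.0422). Foxo3 did not pass without the 1-week control, 1-month control or 1-week 30% CR array (adjusted p of 0.0526 to 0.0631) or with its probe sets averaged (0.503). Gabarapl1 did not pass in 8 of the 10 fits that left out 1 array (0.0511 to 0.18), nor after median centring, without a filter, with the 2 doubtful arrays exchanged or with its probe sets averaged (0.0558 to 0.129). Neither passed with the slow fibre covariate (0.0935 and 0.296) or without the empirical Bayes trend (0.0794 and 0.118). Over the restricted arrays 0 of 12 passed, and 5 had an unadjusted p under 0.05, against 1616 of the 15521 tested probe sets. Trim63, the ubiquitin ligase MuRF1, had the smallest p with 0.17 ± 0.05 (limma, adjusted p = 0.179). In restricted against control Klf9 (0.50 ± 0.10, adjusted p = 0.0148), Gabarapl1 (0.51 ± 0.11, adjusted p = 0.0326) and Foxo3 (0.49 ± 0.11, adjusted p = 0.0272) rose as deposited, and none did with the 2 arrays exchanged (adjusted p of 0.502 to 0.617), without either control array (0.0899 to 0.301), with the slow fibre covariate (0.0987 to 0.191) or without the empirical Bayes trend (0.101 to 0.11). With its probe sets averaged Klf9 was 0.13 (adjusted p = 0.817).

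**Figure D4:**
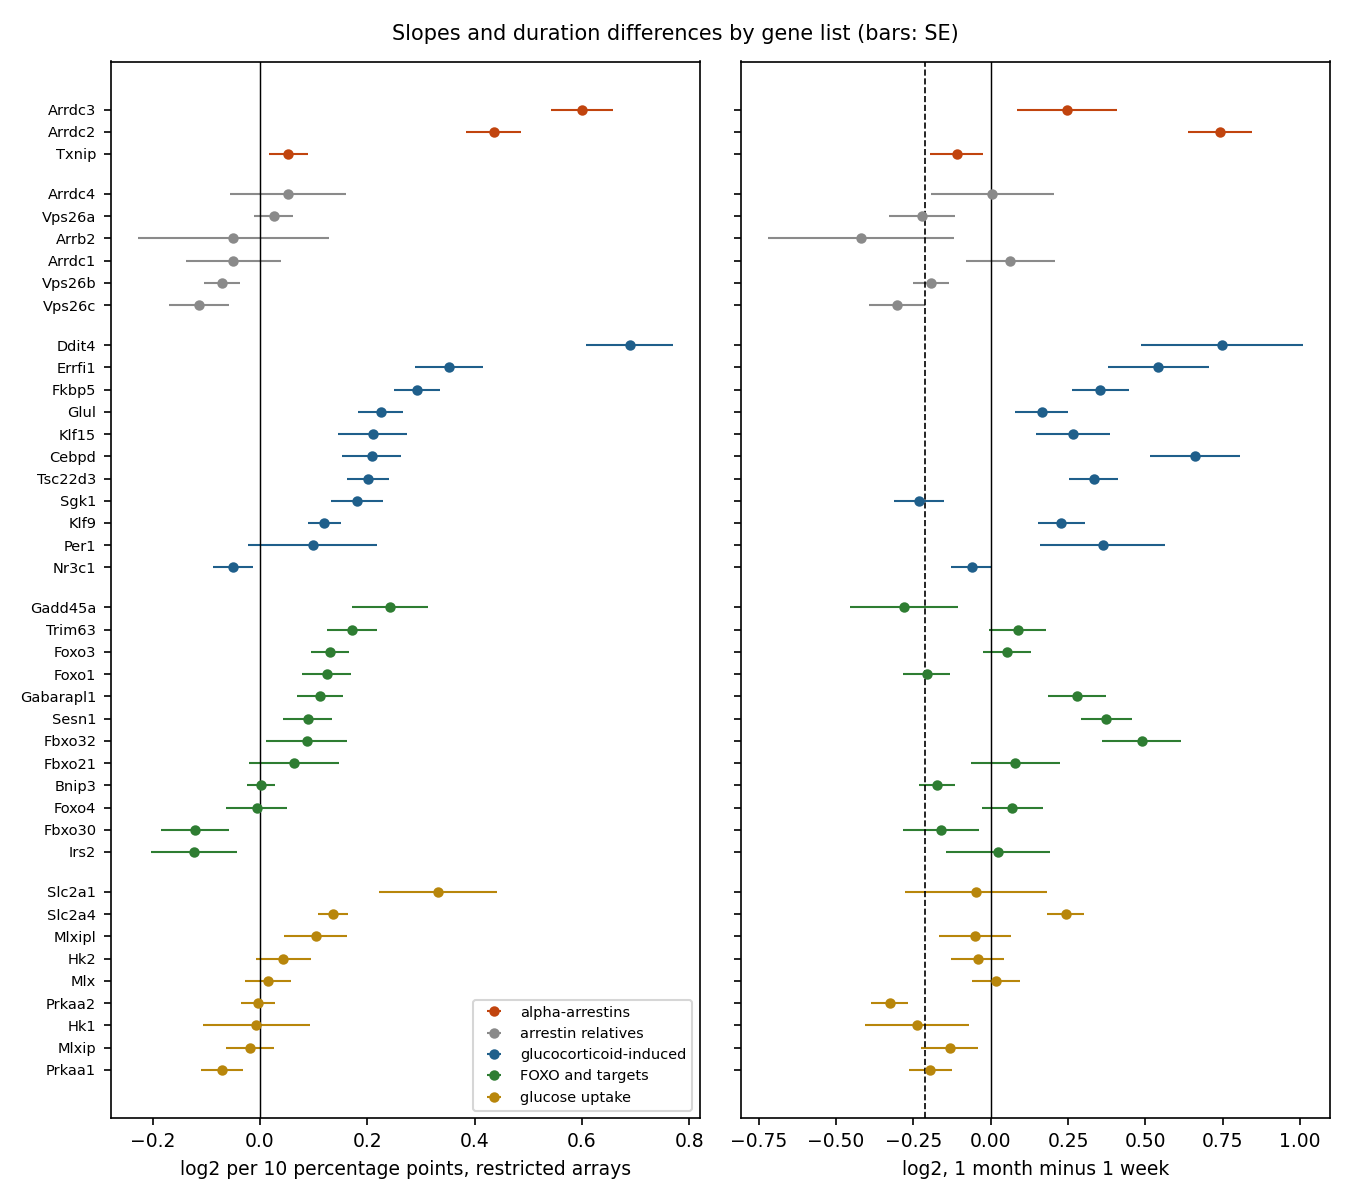
Fitted log2 slope per 10 percentage points over the 8 restricted arrays (left) and fitted log2 difference of 1 month minus 1 week (right) for the 3 alpha-arrestins and the genes of 4 lists, 1 point per gene at its brightest probe set, with bars of 1 SE. The dashed line on the right is the median of all tested probe sets, and Arrdc3, Arrdc2 and Ddit4 lie farthest to the right in the left panel.

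Between durations, 6 of the 11 genes of the glucocorticoid list were higher at 1 month and 1 lower, against 1.13% and 32.8% of all tested probe sets as deposited. The list median was 0.33 against −0.20 for all genes. Ddit4 (0.75 ± 0.26, limma adjusted p = 0.0395) and Cebpd, a C/EBP factor (0.66 ± 0.14, adjusted p = 0.00385), had the largest differences. The Ddit4 call was lost when any of 7 of the 10 arrays was left out (adjusted p of 0.0606 to 0.0965) and without the empirical Bayes trend (0.0934), and that of Cebpd with its probe sets averaged (0.573). Calls higher at 1 month numbered 723 of all probe sets after quantile normalization and 937 after median centring, against 175 as deposited. Of the FOXO list 3 of 12 were higher, led by Fbxo32, the ligase atrogin-1 (0.49 ± 0.13, adjusted p = 0.00961), and Sesn1, a stress-induced sestrin (0.37 ± 0.08, adjusted p = 0.00362). Slc2a4 was also higher (0.24 ± 0.06, adjusted p = 0.00742), as was the phosphodiesterase Pde4d (0.26 ± 0.08, adjusted p = 0.0278). Neither passed with its probe sets averaged (0.261 and 0.302), and Pde4d was lost when any of 7 arrays was left out.

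Lower calls at 1 month have to be read against the 32.8% of all probe sets called so. They comprised 1 gene each of the glucocorticoid and FOXO lists (Sgk1 and Bnip3, both turning sign under median centring), 5 of 8 thioredoxin genes, among them Txn1 (−0.32 ± 0.06) and Prdx5 (−0.25 ± 0.07), and 2 each of the NEDD4-family, glucose, beta-adrenergic and arrestin-fold lists. None of the thioredoxin and arrestin-fold genes passed after quantile normalization or median centring, and Prdx5 and Vps26b changed sign under the latter setting. Grk6, a kinase of G protein-coupled receptors, had the largest such difference (−0.66 ± 0.11, adjusted p = 0.000826) and did not pass after median centring (adjusted p = 0.0963) or with its probe sets averaged (0.118). No gene of the 7 lists passed in the difference of slopes between durations. In limma 5 had an unadjusted p under 0.05, against 940 of the 15521 tested probe sets.

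Likeness of profile was measured as the root mean square difference of log2 signals over the 10 arrays, each gene centred on its own mean, among 9169 other tested genes. The nearest to Arrdc2 were Nfkbia, the NF-kappaB inhibitor (0.22), and Cebpb, a C/EBP factor (0.23), followed by Creg1 (0.28), Errfi1 (0.28) and Gadd45g (0.29). Arrdc2 itself deviated by 0.56 from its own mean. Cebpb had signals of 671.7, 750.9, 763.4, 1052.9 and 1430.2 from control to 30% CR at 1 month and 590.0, 484.6, 545.7, 720.0 and 843.1 at 1 week. Cebpb was higher at 1 month at every level and lowest at 5% CR after 1 week, as Arrdc2 was. This likeness follows from its choice by nearness on the same arrays. The 5% CR array of 1 week is also among those with doubtful feeding.

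The nearest to Arrdc3 were Tspan33 (0.30), Cebpb (0.31), Adarb1 (0.31), Rttn (0.31) and Itga11 (0.31), against a deviation of 0.56 of Arrdc3 itself, so its profile was matched less closely than that of Arrdc2. Arrdc3 ranked 26 among the genes nearest to Arrdc2, and Arrdc2 ranked 14 among those nearest to Arrdc3, at a difference of 0.36. Txnip had a deviation of only 0.15, and its nearest genes were Mrps33 (0.06), Chchd2l3, Pigbos1, Hspbp1 and Pgp (0.07 to 0.08), all genes with small changes. A flat profile lies near many others.

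**Figure D5:**
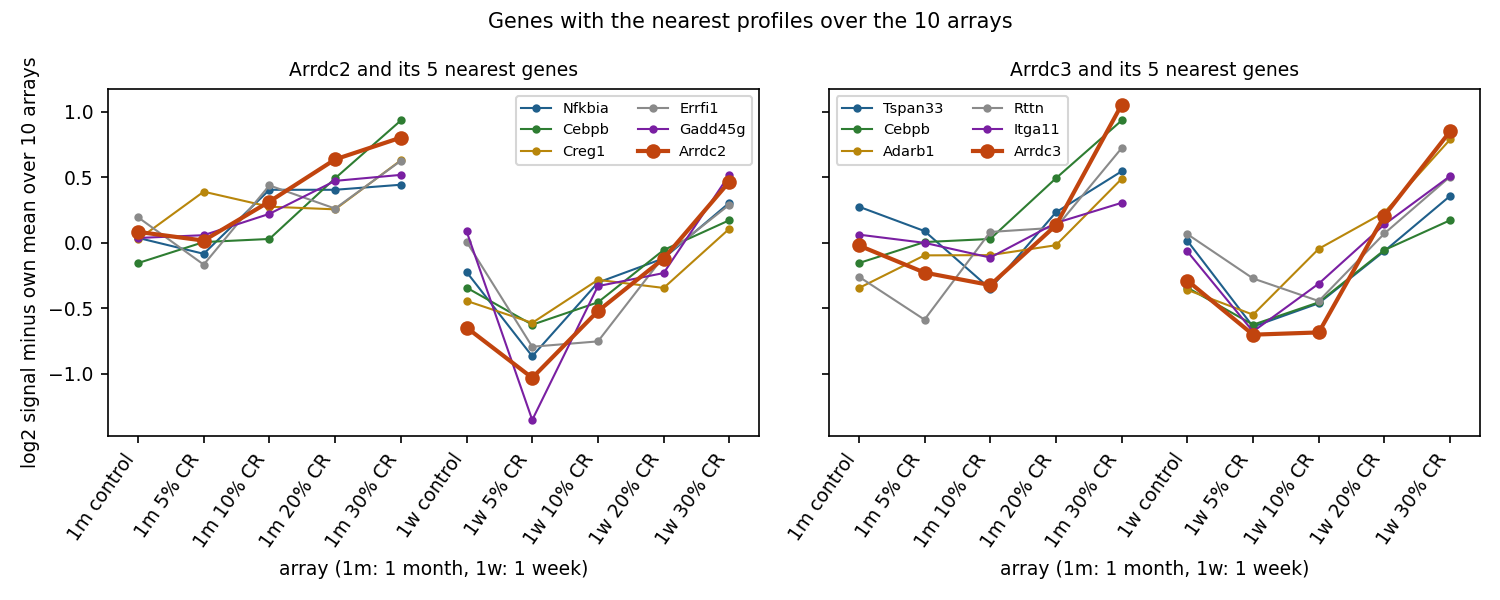
Log2 signal minus the gene's own mean over the 10 arrays, for Arrdc2 (left) and Arrdc3 (right) with the 5 nearest genes of each, 1-month arrays first and then 1-week arrays, each from control to 30% CR. Cebpb appears in both panels, and the curves of both alpha-arrestins are lowest at 5% CR of the 1-week arrays, an array with doubtful feeding. The genes shown were chosen for their nearness on these arrays.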

How the data were processed

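The authors deposited MAS5 signal intensity per probe set, scaled per array by the Affymetrix software (per the labels and the study's methods). No value was a replicate: each of 10 arrays held RNA pooled from 5 rats, so the number of arrays limits the precision. Signals were floored at 0.1 and log2 transformed, 57 control probe sets were removed, and the 15521 probe sets at or above the 50th percentile of mean log2 signal (a geometric mean of 17.84) were tested. Of all probe sets, 20832 had 1 gene in the platform annotation, 436 several and 9831 none. In all, 5 fits were made with limma 3.58.1 in R 4.3.3 (eBayes with trend, Benjamini-Hochberg over all tested probe sets, threshold 0.05): dose trend, restricted against control, slope over restricted arrays, duration, and dose by duration. Of these fits, only the dose trend and dose by duration were tested on simulated data. Genes were represented by their brightest probe set. The members and lists were chosen with earlier results of these data known. Named genes were all measured relatives, the 2 largest passing estimates per list, fit and direction (or the smallest p), and the 5 nearest profiles. Alternatives covered scaling, floor, filter, empirical Bayes trend, exchanged arrays, a slow fibre covariate, each duration alone, probe set means and leaving out arrays. Protein sequences were not used here.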

Additional observations from a re-analysis of the deposited data

Results flagged for a closer look

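Arrb1, which encodes a beta-arrestin, had ratios of opposite sign at the 2 durations on every array as labelled. Its log2 ratios to control were between −2.16 and −0.23 at 1 month and between 1.40 and 1.73 at 1 week, and the mean ratio at 1 month minus that at 1 week was −2.68. All signals were dim, with 4.7 to 17.9 in the restricted groups and 21.0 in control at 1 month, and 22.2 to 27.9 in the restricted groups and 8.4 in control at 1 week. The mean log2 signal lay below the filter, and this difference was not tested. With the 1-week control and 5% CR arrays exchanged, 3 of the 8 ratios were above 0 and the highest was 0.33, so the opposite sign on every array was lost. All 4 ratios of a duration share 1 control array.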

How the results depend on the processing

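No paired analysis was possible by replicate number, because each group had 1 array. Pairing the arrays of the 2 durations by level was possible in the duration fit, and it left the members' estimates as they were and gave 4865 calls, against 5263. For Arrdc2, the dose trend was 0.44 in 1-week arrays alone and 0.28 in 1-month arrays alone, and 0.29 to 0.40 when each array was left out. Its slope over restricted arrays was 0.38 with the doubtful arrays exchanged, 0.57 at 1 week, 0.31 at 1 month, and 0.37 to 0.53 with arrays left out. For Arrdc3 that slope was 0.54 both exchanged and with the slow fibre covariate, 0.67 at 1 week, 0.53 at 1 month and 0.56 to 0.68 with arrays left out, and restricted against control was −0.18 with the covariate. For Txnip the slope was 0.007 after quantile normalization, 0.015 exchanged, 0.11 with the covariate, 0.004 at 1 week and 0.10 at 1 month, restricted against control was −0.07 exchanged, and the comparisons with a higher ratio numbered 1 at a minimum size of 0 and 1 exchanged, against 0. Duration under quantile normalization and median centring was 0.94 and 1.04 for Arrdc2, 0.44 and 0.54 for Arrdc3, and 0.13 and 0.18 for Txnip.

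List genes passing numbered 8 in the dose trend, 4 with probe sets averaged and 3 without the 1-week control array. In restricted against control they numbered 4, then 1 averaged, 2 without that array and 0 exchanged. In duration they numbered 26, then 15 after quantile normalization and 16 after median centring. These array, exchange and scaling settings for lists were chosen after seeing the data. Duration estimates that changed sign under median centring were Vps26b 0.10, Nedd4 0.017, Prdx5 0.038, Prkaa1 0.10, Gnas 0.074, Sgk1 0.061 and Bnip3 0.12, and under quantile normalization Gnas 0.071 and Bnip3 0.072. The cause was not tested.

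Probe sets called numbered 310 in the dose trend, 196 after median centring, 73 without the empirical Bayes trend, 161 exchanged, 65 with the covariate, 109 at 1 week and 6 at 1 month, and 86 (without 30% CR at 1 week) to 368 with arrays left out. In restricted against control they numbered 311, then 77, 1 exchanged, 78 with the covariate, 34 at 1 week and 129 at 1 month, and 27 (without the 1-week control) to 455. In the slope over restricted arrays they numbered 38, then 24 after median centring, 1 without the trend, 9 with the covariate and 20 averaged, and 6 to 35.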
